A study of Rattus norvegicus with 35 samples.

Results

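The MHC class II genes and Ciita were followed in the rat retina after injury of the optic nerve. The set holds 8 of the 14217 genes that the array names: Cd74, RT1-Da, RT1-Db1, RT1-Ba, RT1-Bb, RT1-DMa, RT1-DMb and Ciita. They were chosen by their gene symbol and not by a rule on their values, but with earlier results of these data known. The array carries 14 probe sets for them, and each gene is given by whichever of its probe sets had the highest mean over the 35 arrays. The animals were adult female Sprague-Dawley rats, an outbred strain, and all retinas came from the left eye. In the IONT groups the optic nerve was transected inside the orbit close to the eye with its blood supply spared. In the IONC groups the nerve was crushed with forceps inside the orbit, further from the eye. Naive rats had no surgery, and no sham group was used here. Each array measured RNA pooled from the retinas of 4 different animals. IONC is covered by 3 arrays each for 12 h, 24 h and 48 h and for 3 d and 7 d after the lesion. IONT is covered by 3 arrays each for 12 h, 48 h and 7 d and by 2 arrays each for 24 h, 3 d and 15 d, and 5 arrays were naive. Values are log2 hybridisation intensities (GCRMA), so a difference of 1 is a doubling.

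MHC class II molecules present peptides from engulfed proteins to CD4+ T cells. Each is a pair of an alpha and a beta chain. In the rat, RT1-Da and RT1-Db1 encode the chains of the RT1-D molecule, and RT1-Ba and RT1-Bb those of RT1-B. Cd74, the invariant chain, holds newly made pairs together and fills their groove until the endosome. RT1-DMa and RT1-DMb form the DM molecule, which exchanges the remnant of Cd74 for other peptides. Ciita encodes the class II transactivator, a co-activator with no DNA binding of its own. It is recruited by the RFX, CREB and NF-Y factors that sit on a conserved X and Y box module upstream of these genes, and interferon gamma is its best known inducer. In the central nervous system microglia carry little class II at rest and more after injury, while dendritic cells, B cells and macrophages are the professional presenting cells.

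The stretch of the promoter that holds letters of this module is shown for 5 RT1 genes, because the class II genes are known to be controlled through it. RefSeq promoters (build GRCr8) were read from 250 bases before to 50 bases after the start given for each. For RT1-Da, RT1-Db1 and Cd74 that start lies inside the annotated gene. The Cd74 window, chr18:56526956-56527255, holds fewer than 250 bases before the annotated start at 56527071. RT1-Da, RT1-Db1, RT1-Bb, RT1-Ba, RT1-DMa and Cd74, 6 of the 8 genes, matched among the 33469 promoters of the table. Capitals mark the fixed letters of AGNNACNGA, an X-box-like motif, and of ATTGG, the core of a Y box, found by a script on both strands.
RT1-Da, chr20:4515320-4515382, plus strand: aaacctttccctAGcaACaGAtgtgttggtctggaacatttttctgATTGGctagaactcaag
RT1-Db1, chr20:4560226-4560287, minus strand: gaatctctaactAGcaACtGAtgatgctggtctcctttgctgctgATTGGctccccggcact
RT1-Bb, chr20:4604163-4604224, minus strand: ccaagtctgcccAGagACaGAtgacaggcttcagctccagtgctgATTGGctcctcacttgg
RT1-Ba, chr20:4576969-4577030, plus strand: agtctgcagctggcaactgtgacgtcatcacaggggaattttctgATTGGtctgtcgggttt
RT1-DMa, chr20:4712353-4712444, minus strand: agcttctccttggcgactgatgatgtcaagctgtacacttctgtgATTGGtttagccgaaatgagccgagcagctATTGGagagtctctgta
AGNNACNGA followed by ATTGG with 15 to 35 bases between them was found in 3 of the 6 promoters, those of RT1-Da, RT1-Db1 and RT1-Bb, and in 0.29% of all promoters in the table. The gap was 25 bases in RT1-Da and 24 bases in RT1-Db1 and RT1-Bb. The single motifs are common: AGNNACNGA was in 18.1% of all promoters, ATTGG in 37.5% and CTGATTGG, which RT1-Da, RT1-Db1, RT1-Bb and RT1-Ba share and which contains ATTGG, in 3.5%. These matches describe letters and show no binding.

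The 35 arrays fall into 2 sets by the difference between the 3′ and 5′ β-actin control probe sets, a measure of RNA or labelling quality. It was 2.61 to 3.65 on 8 arrays (array set 2), which are all those of IONT at 24 h, 3 d and 15 d and naive replicates 4 and 5, and 1.53 to 1.93 on the other 27 (array set 1). Each injured group was therefore set against the naive arrays of its own set, called its naive arrays below: replicates 1 to 3 or replicates 4 and 5. One array, IONC 12 h replicate 2, stood apart, with a median correlation of 0.871 with the other arrays against 0.962 to 0.992 for the other 34. Array medians lay between 4.27 and 4.60. A gene was called changed in the limma fit over 31042 probe sets at an adjusted p below 0.01, B above 0 and at least a 1.2-fold change. The p-values measure the spread between pools of the same group.

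Cd74 and RT1-DMb were called higher after both injuries, RT1-Bb, RT1-Db1 and RT1-DMa were called higher after IONC, and the main Ciita probe set was called lower after both. Over the 11 comparisons with naive retinas, 9 of the 88 member values were called higher and 4 were called lower. Cd74, RT1-Bb, RT1-Db1, RT1-DMa and RT1-DMb, 5 of the 8 genes, were called higher at least once, and of all tested probe sets 3.69% were. Ciita was the 1 gene called lower. All 7 other genes lay above every naive array on every array of IONC 48 h and of IONT 7 d, where 27.4% and 47% of all probe sets did so. The median change over the 8 genes was 2.25 at IONC 48 h and 1.32 at IONT 7 d on the log2 scale, beside 0.03 and 0.06 for all tested probe sets. At IONT 24 h the median change was -0.17, with 0 genes called by limma and 0 at an unadjusted p below 0.05. In whole retinas, more cells that carry a transcript and more transcript per cell cannot be told apart.

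**Figure D1:**
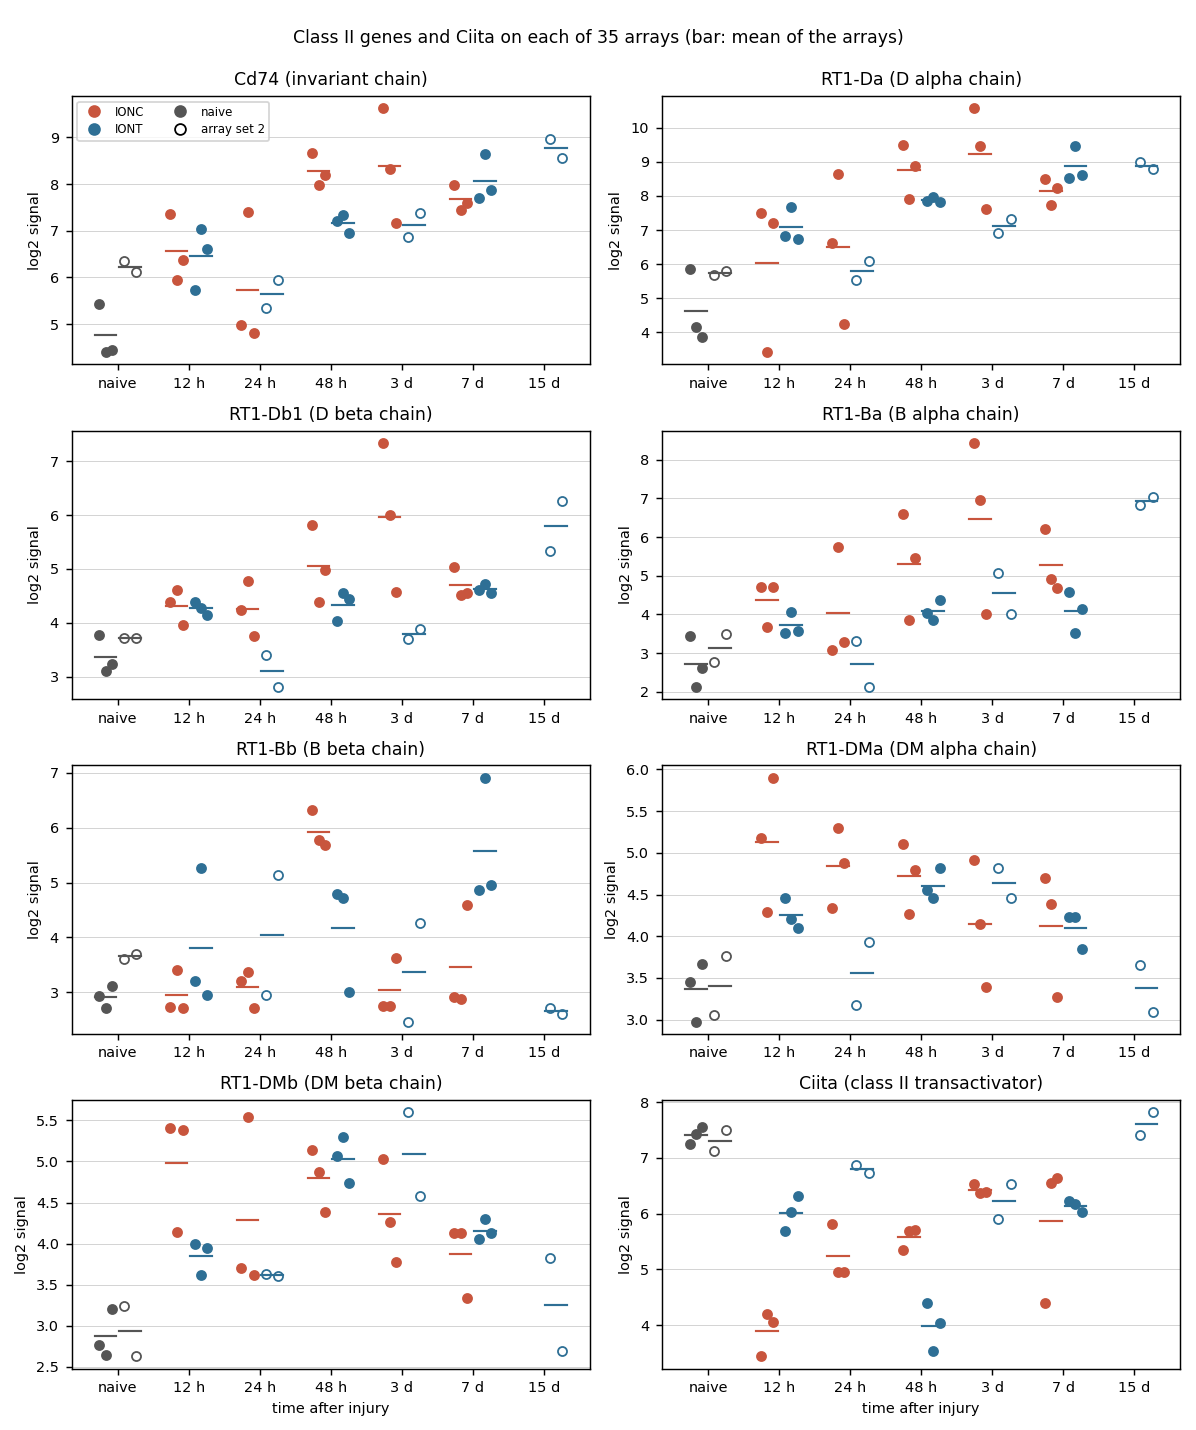
Log2 intensity (GCRMA, y axis) of the 8 genes on each of the 35 arrays, with naive arrays at the left, then time after IONC and IONT (x axis). Open points are arrays of array set 2 and bars are group means. Cd74 and RT1-Da lie above their naive arrays on 26 and 27 of the 30 injured arrays, and Ciita on 1. Taken 1 group at a time, 8.87% (IONC 12 h) to 47% (IONT 7 d) of all probe sets had every array above.

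Cd74, which encodes the invariant chain, was called higher at 4 of the 11 times. After IONC it read 7.36, 5.95 and 6.38 at 12 h, 4.97, 7.39 and 4.82 at 24 h, 8.66, 7.99 and 8.19 at 48 h, 9.63, 8.33 and 7.17 at 3 d, and 7.99, 7.45 and 7.59 at 7 d, against 5.42, 4.40 and 4.45 in naive replicates 1 to 3. After IONT at the times of the same array set it read 5.73, 7.04 and 6.60 at 12 h, 7.20, 7.34 and 6.95 at 48 h, and 7.70, 8.64 and 7.86 at 7 d. All these arrays but IONC 24 h replicates 1 and 3 lay above the 3 naive arrays. Taken 1 group at a time, 8.87% (IONC 12 h) to 47% (IONT 7 d) of all probe sets had every array above. The other IONT arrays read 5.35 and 5.95 at 24 h, 6.87 and 7.38 at 3 d, and 8.96 and 8.57 at 15 d, against 6.34 and 6.12 in naive replicates 4 and 5. Here the 24 h arrays lay below both naive arrays and the 3 d and 15 d arrays above them. Of all probe sets 23.6%, 17.8% and 24.4% did so.

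In the limma fit Cd74 was 3.52 ± 0.56 higher on the log2 scale at IONC 48 h (SE, 11.5-fold, adjusted p = 0.000529), and 0.435% of all probe sets were called higher there. At IONC 3 d it was 3.62 ± 0.56 higher (12.3-fold, adjusted p = 0.00108, background 0.11%) and at IONC 7 d 2.92 ± 0.56 higher (7.57-fold, adjusted p = 0.00609, background 0.197%). At IONT 7 d it was 3.31 ± 0.56 higher (9.94-fold, adjusted p = 0.00104, background 0.235%). The IONC 48 h call held with each array left out in turn. Without IONC 3 d replicate 1, the highest of all 35 arrays for Cd74, the IONC 3 d change was 3.00 and its adjusted p 0.016. The IONT 7 d call was lost without IONT 7 d replicate 2 (3.03, adjusted p = 0.0113), and those of IONC 3 d and IONT 7 d also without naive replicate 2 (adjusted p = 0.0113 and 0.0108). The IONC 7 d call was lost without any 1 of its 3 arrays (adjusted p = 0.0183 to 0.0503) or without naive replicate 2 or 3 (0.0453 and 0.0409), and also against all 5 naive arrays (0.0223) or with each array set fitted alone (0.0171).

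At IONT 48 h the Cd74 change of 2.41 had an adjusted p of 0.0121 and at IONT 15 d the change of 2.54 one of 0.0391. Neither was called. No member was called by limma at IONT 15 d (0 of 8), beside 1.87% of all probe sets. Against all 5 naive arrays the IONT 15 d value was 3.42 with an adjusted p of 0.000727, in a comparison that called 3.37% of all probe sets higher. The naive arrays of the 2 sets differ for this gene (4.40 to 5.42 in replicates 1 to 3 and 6.12 to 6.34 in replicates 4 and 5), and the call at IONT 15 d depends on which of them are used. By group means the order of Cd74 levels began with naive replicates 1 to 3 (4.76), IONT 24 h (5.65), IONC 24 h (5.73) and naive replicates 4 and 5 (6.23), and ended with IONC 48 h (8.28), IONC 3 d (8.38) and IONT 15 d (8.77). Neighbours in this order overlapped in range at every step but one, between IONT 48 h (7.17) and IONC 7 d (7.68).

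**Figure D2:**
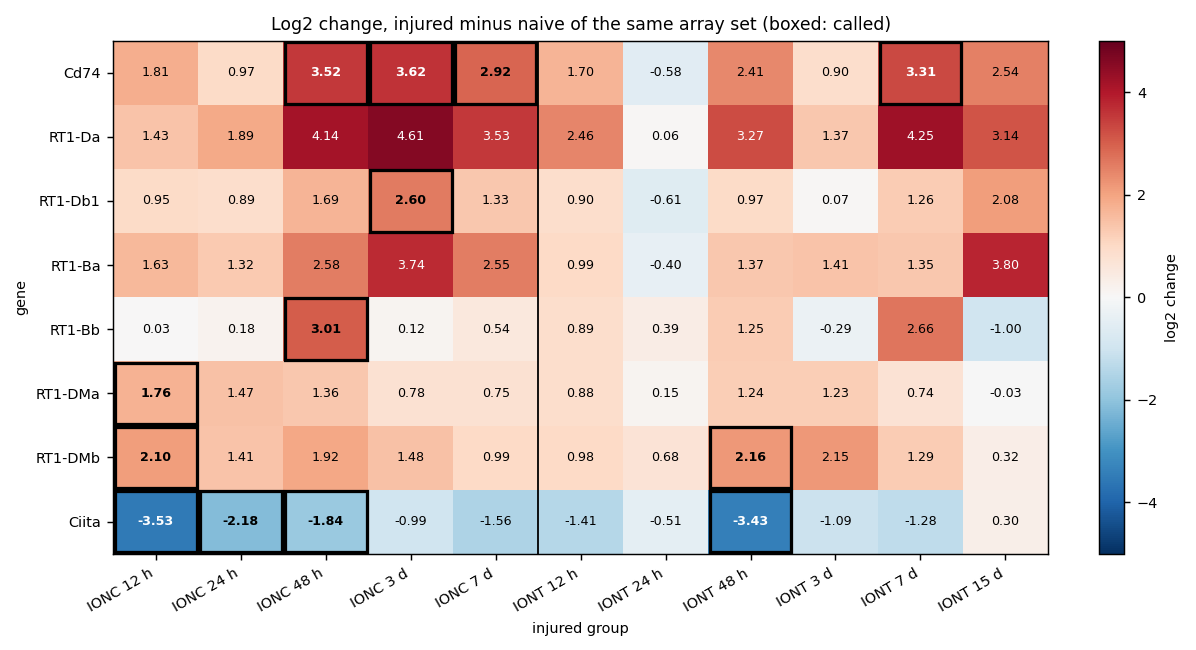
Log2 change of each gene (rows) in each IONC and IONT group (columns, by time) from the naive arrays of the same array set, as colour and as a number, with called values boxed. Cd74 is called at IONC 48 h, 3 d and 7 d and at IONT 7 d, and Ciita is called below 0 at IONC 12 h, 24 h and 48 h and IONT 48 h.

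RT1-Da, the alpha chain of RT1-D, had the widest changes of the set and was called in none of the 11 comparisons. After IONC it read 7.50, 3.42 and 7.22 at 12 h, 6.61, 8.64 and 4.26 at 24 h, 9.51, 7.91 and 8.87 at 48 h, 10.57, 9.47 and 7.62 at 3 d, and 8.48, 7.74 and 8.23 at 7 d, against 5.85, 4.14 and 3.86 in naive replicates 1 to 3. After IONT it read 6.81, 7.68 and 6.73 at 12 h, 7.87, 7.96 and 7.84 at 48 h, and 8.54, 9.46 and 8.61 at 7 d. Of these 24 arrays, 22 lay above the 3 naive arrays, and the exceptions were IONC 12 h replicate 2 and IONC 24 h replicate 3. In single groups 8.87% (IONC 12 h) to 47% (IONT 7 d) of all probe sets had every array above. The arrays of the other set read 5.54 and 6.08 at IONT 24 h, 6.90 and 7.33 at 3 d, and 8.98 and 8.78 at 15 d, against 5.69 and 5.80 in naive replicates 4 and 5.

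The RT1-Da change was 4.61 ± 0.92 at IONC 3 d (adjusted p = 0.0114 in the limma fit), 4.25 ± 0.92 at IONT 7 d (0.0109) and 4.14 ± 0.92 at IONC 48 h (0.0107), each just outside the threshold of 0.01. At IONC 7 d it was 3.53 (0.0605), at IONT 48 h 3.27 (0.0458) and at IONT 15 d 3.14 (0.155). Its SE rests in part on IONC 12 h replicate 2, the array that stood apart, where RT1-Da had its lowest value of all. With that array left out, RT1-Da was called higher at IONC 48 h (adjusted p = 0.000999), 3 d (0.000949) and 7 d (0.00688) and at IONT 48 h (0.0059) and 7 d (0.000849). The share of all probe sets called higher was then 1.74%, 0.648% and 0.799% at the IONC times and 2.04% and 2.24% at the IONT times. With IONC 3 d replicate 1 left out as well, the IONC 3 d change was 3.93 and its adjusted p 0.00735. Over the 35 arrays the values of RT1-Da and Cd74 had a Pearson correlation of 0.934, and of 0.968 without IONC 12 h replicate 2. For this and all correlations between members below, the naive mean of each array's own set was first subtracted. These arrays share groups and array sets.

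RT1-Db1 encodes the beta chain of RT1-D. After IONC it read 4.39, 4.62 and 3.96 at 12 h, 4.24, 4.78 and 3.76 at 24 h, 5.81, 4.38 and 4.98 at 48 h, 7.34, 6.0 and 4.57 at 3 d, and 5.03, 4.52 and 4.56 at 7 d, against 3.77, 3.11 and 3.24 in naive replicates 1 to 3. At IONT 15 d it read 5.34 and 6.25, and at IONT 24 h 3.41 and 2.81, against 3.72 and 3.72 in naive replicates 4 and 5. The highest group means were those of IONC 3 d (5.97) and IONT 15 d (5.80). At IONT 12 h, 48 h and 7 d the values lay between 4.03 and 4.73, all above naive replicates 1 to 3. At these times 12.1%, 20.2% and 47% of all probe sets did so. RT1-Db1 was called higher at IONC 3 d (2.60 ± 0.44, 6.06-fold, adjusted p = 0.00271), and at IONT 15 d its change of 2.08 ± 0.54 was not called (0.0289). The IONC 3 d call was lost without IONC 3 d replicate 1 (1.92, adjusted p = 0.0249) or replicate 2 (2.58, 0.0148) and without naive replicate 2 (0.0245) or 3 (0.0185). With IONC 12 h replicate 2 and IONC 3 d replicate 1 both out, the change of 1.92 was called. As the mean of its 2 probe sets the change was 1.53 and was called (0.00922).

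RT1-Ba, the alpha chain of RT1-B, showed the same 2 high times. After IONC it read 4.70, 3.68 and 4.70 at 12 h, 3.08, 5.76 and 3.30 at 24 h, 6.59, 3.87 and 5.46 at 48 h, 8.44, 6.96 and 4.01 at 3 d, and 6.22, 4.92 and 4.69 at 7 d, against 3.45, 2.13 and 2.61 in naive replicates 1 to 3. At IONT 15 d it read 6.82 and 7.04, against 2.77 and 3.50 in naive replicates 4 and 5. At the other IONT times it ranged between 3.51 and 4.57 on the arrays of array set 1 and between 2.14 and 5.07 on those of set 2. All arrays lay above their naive arrays at IONC 3 d and IONT 15 d, where 43.3% and 24.4% of all probe sets did so. The arrays of IONC 3 d differed among themselves by more than 4 log2 units. The change was 3.80 ± 1.00 at IONT 15 d (adjusted p = 0.0325) and 3.74 ± 0.82 at IONC 3 d (0.0252), and neither was called. Against all 5 naive arrays both were called, at 4.04 (0.00214) and 3.58 (0.00901), beside 3.37% and 0.174% of all probe sets. Values of RT1-Ba and RT1-Db1 had a correlation of 0.896 over the 35 arrays, after the same subtraction of naive means.

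RT1-Bb, the beta chain of RT1-B, had another order in time from its partner RT1-Ba. After IONC it read 6.33, 5.77 and 5.69 at 48 h, against 2.94, 2.70 and 3.11 in naive replicates 1 to 3. It read 2.75, 2.74 and 3.62 at IONC 3 d, where RT1-Ba had its highest single array. At IONT 7 d it read 4.87, 6.91 and 4.95. At IONT 15 d it read 2.70 and 2.60, below naive replicates 4 and 5 at 3.61 and 3.69. Of all probe sets 42.1% had every IONT 15 d array below these naive arrays. The fall of RT1-Bb there was not called in the limma fit (adjusted p = 0.864). At IONC 12 h, 24 h and 7 d RT1-Bb ranged between 2.71 and 4.59. Its IONT arrays of 1 group could differ by over 2 log2 units, as at 24 h with 2.94 and 5.14. RT1-Bb was called higher at IONC 48 h (3.01 ± 0.66, 8.07-fold, adjusted p = 0.00971), close to the threshold. The call was lost in 28 of 52 alternative settings, among them the replicate number as a block (adjusted p = 0.0112), arrays centred on their medians (0.0113), the mean of its 2 probe sets (1.54, 0.0114) and leaving out any array of IONC 48 h (0.0168 to 0.0668) or naive replicate 1, 2 or 3 (0.0305 to 0.0496). At IONT 7 d the change of 2.66 had an adjusted p of 0.0311. The correlation between RT1-Ba and RT1-Bb over the 35 arrays was -0.07, after the same subtraction of naive means.

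The RT1-Bb probe set read above 4 on 12 of the 35 arrays. Other probe sets of these genes were mostly at the low end of the scale. RT1-Ba has 3 further probe sets, of which 2 read 1.72 to 1.94 on all arrays, and the third, 1370822_at, reached 4.26 on IONT 7 d replicate 2 and 3.11 on replicate 3. The second probe sets of RT1-Bb and RT1-Db1 had their highest values, 3.46 and 5.52, on IONC 12 h replicate 2. None of these 5 was called in any comparison with naive retinas. The RT1 genes are polymorphic between rat strains, and how well each probe set matches the alleles of these outbred animals was not tested. No level of one probe set was set against another.

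**Figure D3:**
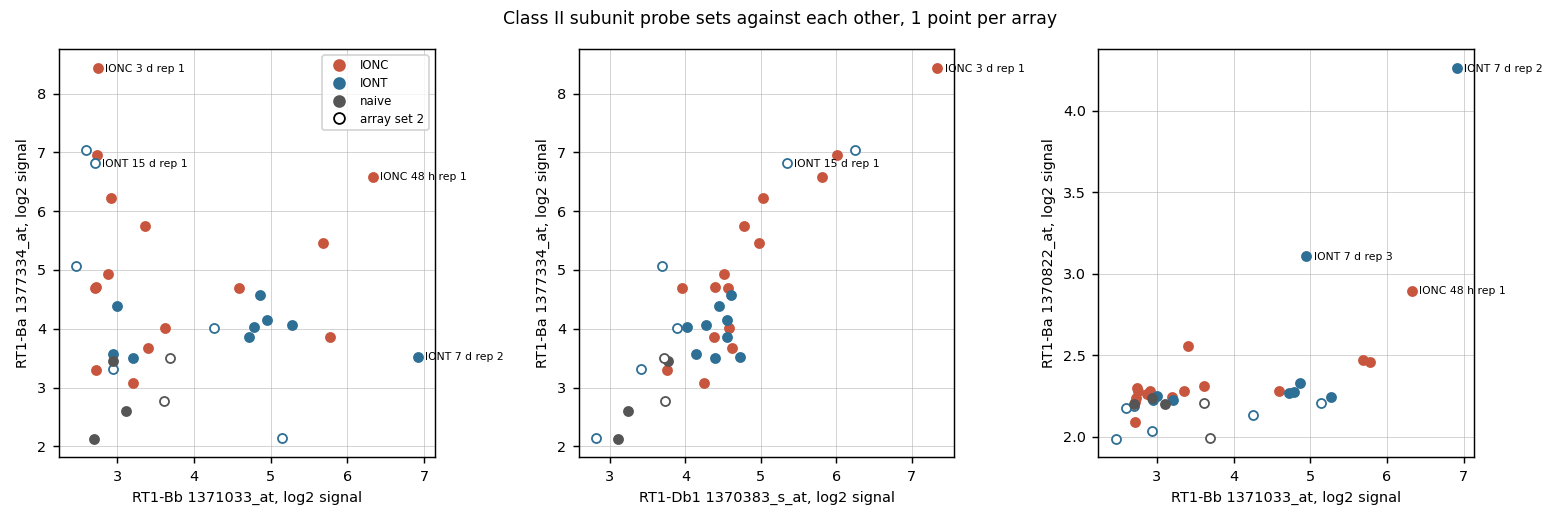
Log2 intensity (GCRMA) of pairs of class II chain probe sets against each other, 1 point for each of the 35 arrays, coloured by IONC, IONT and naive, with open points for array set 2. RT1-Ba 1377334_at and RT1-Db1 1370383_s_at are both highest on IONC 3 d replicate 1, at 8.44 and 7.34, while RT1-Bb 1371033_at is highest on IONT 7 d replicate 2 at 6.91.

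The DM genes were called at early times. RT1-DMa read 5.18, 4.30 and 5.90 at IONC 12 h, and RT1-DMb 5.41, 4.15 and 5.38, against 3.45, 2.98 and 3.67 (RT1-DMa) and 2.77, 2.65 and 3.21 (RT1-DMb) in naive replicates 1 to 3. Every IONC 12 h array lay above the naive arrays for both genes, as for 8.87% of all probe sets. RT1-DMa was called higher there (1.76 ± 0.40, 3.38-fold, adjusted p = 0.00574) and so was RT1-DMb (2.10 ± 0.44, 4.3-fold, adjusted p = 0.00268), in a comparison where 0.857% of all probe sets were. At IONT 48 h RT1-DMb read 5.07, 5.30 and 4.74, and was called higher (2.16 ± 0.44, 4.47-fold, adjusted p = 0.0033, background 0.734%). At IONC 48 h its change of 1.92 had an adjusted p of 0.0127 and at IONT 3 d, with 5.60 and 4.58 against 3.25 and 2.63 in naive replicates 4 and 5, its change of 2.15 had one of 0.0313.

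Both DM genes overlapped their naive arrays at IONT 15 d, where Cd74 did not. RT1-DMa read 3.66 and 3.10 and RT1-DMb 3.83 and 2.69, against 3.05 and 3.76 (RT1-DMa) and 3.25 and 2.63 (RT1-DMb) in naive replicates 4 and 5. After IONC from 24 h to 7 d RT1-DMa ranged between 3.28 and 5.30 and RT1-DMb between 3.34 and 5.54, and their lowest values in this span were those of IONC 7 d replicate 3. RT1-DMb lay above its naive arrays on 29 of the 30 injured arrays and RT1-DMa on 25. By group, 8.87% (IONC 12 h) to 47% (IONT 7 d) of all probe sets had every array above. Their values had a correlation of 0.824 with each other and of 0.382 (RT1-DMa) and 0.511 (RT1-DMb) with Cd74, over the 35 arrays. The IONC 12 h calls were lost without IONC 12 h replicate 1 or 3, where the adjusted p stayed below 0.01 (0.00643 to 0.00961) and B fell to 0 or less, and without naive replicate 1 or 2 (0.0145 to 0.0408), for RT1-DMa also without naive replicate 3 (0.0125). The RT1-DMa call was lost as well with each array set fitted alone (0.0104), with cyclic loess between arrays (0.0112) and with arrays centred on their medians, where the adjusted p was 0.0095 and B was 0 or less. The RT1-DMb call at IONT 48 h was lost without IONT 48 h replicate 1 (0.0159) or 2 (0.024) or without naive replicate 1 (0.0181) or 2 (0.0233).

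The main probe set annotated to Ciita, the transactivator gene, is 1379381_at, and it ran the other way. It was designed on an expressed sequence tag, and whether its signal in retina comes from Ciita transcripts was not tested. It read 3.44, 4.19 and 4.05 at IONC 12 h, 5.81, 4.95 and 4.96 at 24 h, 5.34, 5.69 and 5.71 at 48 h, 6.54, 6.37 and 6.39 at 3 d, and 4.40, 6.54 and 6.63 at 7 d, against 7.26, 7.44 and 7.56 in naive replicates 1 to 3. After IONT it read 5.69, 6.04 and 6.31 at 12 h, 4.39, 3.53 and 4.04 at 48 h, and 6.23, 6.17 and 6.02 at 7 d. Every one of these 24 arrays lay below the 3 naive arrays. Taken 1 group at a time, 11.3% (IONT 12 h) to 15.9% (IONT 7 d) of all probe sets did so. In the other array set it read 6.88 and 6.73 at IONT 24 h, 5.91 and 6.54 at 3 d, and 7.42 and 7.82 at 15 d, against 7.13 and 7.49 in naive replicates 4 and 5, so that the 15 d arrays overlapped the naive ones.

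Ciita was called lower at IONC 12 h (-3.53 ± 0.38 on the log2 scale, adjusted p = 1.26e-06), where 3.29% of all probe sets were, and at IONT 48 h (-3.43 ± 0.38, adjusted p = 2.52e-06, background 1.32%). Both calls held in all 52 alternative settings, and with the mean of the 2 Ciita probe sets the IONC 12 h change was -2.34. It was also called lower at IONC 24 h (-2.18 ± 0.38, adjusted p = 0.00156, background 0.638%) and at IONC 48 h (-1.84 ± 0.38, adjusted p = 0.00624, background 0.925%). The IONC 24 h call was lost without IONC 24 h replicate 2 (0.0166) or 3 (0.0149) or naive replicate 2 (0.0101) or 3 (0.0122), and the IONC 48 h call without any 1 array of IONC 48 h (0.0119 to 0.0466) or any of naive replicates 1 to 3 (0.0178 to 0.0333) or with each array set fitted alone (0.015). At IONC 7 d, IONT 12 h and IONT 7 d the changes of -1.56, -1.41 and -1.28 were not called. Without IONC 7 d replicate 1, the lowest of its group at 4.40, those of IONT 12 h and IONT 7 d were (adjusted p = 0.000944 and 0.00312).

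The second Ciita probe set, 1369214_a_at, read 2.49 to 3.26 on the IONC and IONT arrays of the first array set, against 4.01, 4.11 and 3.93 in naive replicates 1 to 3. It was called lower in all 8 of those comparisons, by 0.94 to 1.29 on the log2 scale, and in none of the 3 of the other set. Naive replicates 4 and 5 read 2.82 and 3.13 on it, as low as the injured arrays, and IONT 15 d read 3.59 and 3.55. The direction after injury thus followed that of the main probe set where naive replicates 1 to 3 were the reference, at values near the low end of the scale. Over the 35 arrays the main Ciita probe set had a correlation of -0.297 with Cd74, of -0.757 with RT1-DMa and of -0.736 with RT1-DMb. The correlations are across arrays that share groups.

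Markers of rod photoreceptors were lower at the 2 times of the lowest Ciita values. Of the 12 rod markers measured, 9 were called lower at IONC 12 h and 7 at IONT 48 h, beside 3.29% and 1.32% of all probe sets. At IONT 12 h 4 were called lower and at IONT 3 d 2, beside 0.49% and 0.296% of all probe sets. At IONC 24 h and IONC 48 h, where Ciita was called too, 1 was each time (Gnat1 and Cnga1), beside 0.638% and 0.925%. At IONC 3 d and 7 d and at IONT 24 h, 7 d and 15 d, 0 were. Gnat1, the rod transducin alpha subunit, changed by -1.30 at IONC 12 h and by -1.41 at IONT 48 h (adjusted p = 1.76e-08 and 6.34e-09). The log2 of the summed rod signal was 17.65 to 17.67 in naive replicates 1 to 3. It lay below them at IONC 12 h (16.96 to 17.24), 24 h (17.53 to 17.62) and 48 h (17.51 to 17.57). So it did at IONT 12 h (17.35 to 17.44) and 48 h (17.21 to 17.32). At IONT 3 d it was 17.255 to 17.28, against 17.39 to 17.49 in naive replicates 4 and 5. Every Ciita array of these groups also lay below its naive arrays. At the other times the rod markers and Ciita differed in direction or overlap. At IONC 3 d the log2 of the summed rod signal was 17.67 to 17.75, against 17.65 to 17.67 in naive replicates 1 to 3, while Ciita was below them by a change of -0.99 that was not called. At IONT 15 d it was 17.27 to 17.32, against 17.39 to 17.49 in naive replicates 4 and 5, while Ciita overlapped those arrays. The summed rod signal also overlapped its naive arrays at IONT 7 d (17.63 to 17.75), IONC 7 d (17.52 to 17.71) and IONT 24 h (17.37 to 17.39). The overlap at IONT 24 h was narrow, with a highest value of 17.3912 against a lowest naive value of 17.3904. Every Ciita array of IONT 7 d, IONC 7 d and IONT 24 h lay below its naive arrays. The part of these changes in the Ciita values was not tested.

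Among the genes measured above a mean of 4 (9376 genes), those whose values were most like the main Ciita probe set over the 35 arrays, after the naive mean of each array set was subtracted, were Rapgef5 (Pearson r = 0.943), Rrp1b (0.937), Uckl1 (0.935), Tnfaip3 (0.934) and Grk1 (0.920). Grk1 encodes rhodopsin kinase and Tnfaip3 the A20 inhibitor of NF-kB signalling. This search for Ciita was added after its values were seen. For Cd74 the corresponding genes were Ifi27l2b (0.816), Fcer1g (0.789), C3 (0.777), Mpzl1 (0.755) and RT1-T24-4 (0.755). Fcer1g is the signalling chain of Fc receptors in myeloid cells, C3 the central complement component and RT1-T24-4 a class I gene. Without IONC 12 h replicate 2, 3 of these 5 stayed among the first 5 and all 5 among the first 20.

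IONC and IONT were compared at the 5 shared times, 40 member values in all. At 24 h and 3 d the 2 lesions lie in different array sets, so there the difference is that between each lesion's change from the naive arrays of its own set, and not that between the printed values. A difference between the sets that the naive arrays do not share cannot be told apart from the lesion. Of the 8 genes, 1 was called at 12 h, where 1.21% of all probe sets were called lower. This was Ciita, which read 3.44, 4.19 and 4.05 after IONC and 5.69, 6.04 and 6.31 after IONT. The groups did not overlap, and 8.62% of all probe sets had every IONC array below every IONT array. The difference of -2.12 ± 0.38 (95% interval -2.91 to -1.33) was called (adjusted p = 0.00201). It was lost without IONT 12 h replicate 2 (-2.11, 0.0141) or 3 (-1.97, 0.0158), and was -1.06 (0.00661) for the mean of the 2 Ciita probe sets. At 48 h Ciita ran the other way, with 5.34, 5.69 and 5.71 after IONC and 4.39, 3.53 and 4.04 after IONT. That difference of 1.60 (95% interval 0.81 to 2.38) was not called (adjusted p = 0.071), and it was without IONC 7 d replicate 1 (0.00121). No class II chain, DM gene or Cd74 was called at any of the 5 times. The shares of all probe sets called were 0.235% (24 h), 0.145% (48 h), 0.126% (3 d) and 0.0548% (7 d), and 3, 2, 3 and 1 members had an unadjusted p below 0.05.

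For Cd74 the difference between IONC and IONT was 0.10 at 12 h (95% interval -1.06 to 1.27), 1.11 at 48 h (-0.05 to 2.28) and -0.39 at 7 d (-1.56 to 0.77). At 48 h the interval reaches differences of over 2 log2 units in favour of IONC. At 3 d the change from the naive arrays of the same set was 3.62 after IONC and 0.90 after IONT, a difference of 2.72 (0.88 to 4.56, adjusted p = 0.26). With all 5 naive arrays as 1 group it was the difference of the group means, 8.38 after IONC and 7.13 after IONT, which is 1.25 (adjusted p = 0.261). RT1-Db1 changed from the naive arrays of the same set by 2.60 after IONC and by 0.07 after IONT at 3 d, a difference of 2.53 (adjusted p = 0.126). Its values were 7.34, 6.0 and 4.57 after IONC and 3.70 and 3.89 after IONT. The difference was called without IONC 3 d replicate 3 (3.23, 0.00992) or with all 5 naive arrays as 1 group (2.18, 0.0044), where 1.37% of all probe sets were called higher.

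Late times were set against early times within each lesion and array set. At IONT 15 d against 24 h, 2 members were called higher and 1.32% of all probe sets were. Cd74 read 8.96 and 8.57 at 15 d, against 5.35 and 5.95 at 24 h (3.12, 8.68-fold, adjusted p = 0.00821), and RT1-Db1 5.34 and 6.25, against 3.41 and 2.81 (2.69, 6.45-fold, adjusted p = 0.00355). The groups did not overlap for either, and 22.8% of all probe sets had every 15 d array above. RT1-Ba, with 6.82 and 7.04 at 15 d against 3.32 and 2.14 at 24 h, had a difference of 4.20 and an adjusted p of 0.0151. The Cd74 call was lost without any 1 of the 4 arrays (0.0246 to 0.104) and, with the difference unchanged, without many arrays of other groups, against all 5 naive arrays as 1 group (0.0206), with each array set fitted alone (0.0487), with array weights (0.011) and with arrays centred on their medians (0.0105). The RT1-Db1 call was lost without IONT 24 h replicate 1 (0.0151) or 2 (0.0481) or IONT 15 d replicate 2 (0.0633), with each array set fitted alone (0.0719) and for the mean of its 2 probe sets (1.23, 0.0549).

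At IONC 7 d against 12 h, Ciita was called higher (1.97, 3.91-fold, adjusted p = 0.00588) and 0.486% of all probe sets were. The call was lost without IONC 12 h replicate 1 (1.74, 0.0137) or IONC 7 d replicate 2 (1.63, 0.0763) or 3 (1.58, 0.0794), with each array set fitted alone (0.0163) and with cyclic loess (0.0293). For the mean of the 2 Ciita probe sets the difference was 1.08 and was called (0.00939). RT1-DMa and RT1-DMb changed by -1.0 and -1.11 there (adjusted p = 0.178 and 0.173). At IONT 7 d against 12 h no member was called by limma, 2 had an unadjusted p below 0.05 and 1.42% of all probe sets were called. At IONT 12 h, 24 h and 3 d against naive no member was called either, where 1.05%, 0.831% and 0.954% of all probe sets were, and 5, 0 and 3 members had an unadjusted p below 0.05. For IONT 15 d against naive that number was 4.

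Of 39 measured genes on 4 lists of the pathway 0 were called higher and 3 lower in at least 1 of the 11 comparisons, beside 3.69% and 4.45% of all probe sets. Of the 10 measured genes for the factors that build the class II promoter complex, including Rfx5, Rfxap, Rfxank and Nfya, 0 were called higher at any time. Nfyb, a subunit of NF-Y, was called lower at IONC 12 h (-1.93, adjusted p = 0.000148) and at IONT 48 h (-1.38, adjusted p = 0.0068), the same 2 times as the lowest Ciita. Of the 9 measured genes on the list kept for interferon gamma signalling and its control, 0 were called higher. Prdm1, on this list but not itself a part of the signal chain, was called lower once. Ifng itself did not exceed 2.79 on any array. Irf1, which interferon gamma induces, changed by 1.70 at IONC 12 h (adjusted p = 0.0353) and was not called.

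Of 13 measured genes for class II processing and turnover, 0 were called higher. Marchf1, a ubiquitin ligase that removes class II from the cell surface, was called lower at IONC 12 h (-2.05, adjusted p = 3.89e-06), IONC 24 h (-1.25, adjusted p = 0.00397) and IONT 48 h (-1.65, adjusted p = 8.97e-05). Ctss, the cathepsin that cuts Cd74, changed by 1.27 at IONC 7 d and by 1.30 at IONT 15 d, with adjusted p of 0.0723 and 0.0972. Of 7 measured genes for co-stimulation and recognition 0 were called. Icam1, an adhesion molecule, read 3.64 to 8.01 at IONC 12 h and 6.27 to 7.02 at IONT 12 h, against 3.40 to 3.70 in naive replicates 1 to 3, with changes of 2.63 (IONC) and 3.09 (IONT) that were not called (adjusted p = 0.0357 and 0.0453). The log2 of the summed signal of the 7 genes was 7.00 to 8.16 at IONC 12 h, 6.25 to 7.09 at IONC 48 h and 6.72 to 7.31 at IONT 12 h, against 5.27 to 5.36 in those naive arrays. Of the co-stimulatory molecules of presenting cells, Cd80 and Cd40 did not exceed 2.94 and 2.16, while Cd86 read 6.31 on IONC 12 h replicate 2, the array that stood apart, and at most 2.29 on the other 34. Cd4 did not exceed 2.34. The part of these genes in the class II values was not tested.

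Some markers of other cells were called higher too. Of 14 measured microglia markers 5 (35.7%) were called higher at least once, beside 3.69% of all probe sets: Tyrobp in 8 of the 11 comparisons, C1qb in 7, Csf1r in 5, and Fcer1g and C1qc in 2 each. At IONC 48 h Csf1r, the receptor for colony stimulating factor, changed by 2.46 (adjusted p = 0.000963). The log2 of the summed microglia signal was 10.2 to 10.5 at IONC 48 h, 9.39 to 10.6 at IONC 3 d and 9.41 to 9.67 at IONT 7 d, against 7.92 to 8.08 in naive replicates 1 to 3. At IONT 15 d, where Cd74 had its highest mean, it was 8.80 to 9.48, against 7.76 to 7.86 in naive replicates 4 and 5. By single arrays the summed microglia signal was highest at IONT 3 d (9.54 to 10.9) and IONC 12 h (8.67 to 10.9). By the lowest array of each group it was highest at IONC 48 h, where Cd74 was called. At IONT 3 d and IONC 12 h the group mean of Cd74 changed by 0.90 and 1.81 and was not called. Of the defining microglia markers, P2ry12 and Aif1 reached 7.92 and 7.44, both on IONT 3 d replicate 1, and neither was called against naive. Cx3cr1 and Tmem119 did not exceed 3.02 and 2.48 on any array. The part of the microglia signal in the class II values was not tested.

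Coro1a and Lcp1, 2 of the 8 pan-leukocyte markers (25%, beside the same 3.69%), were called higher in 3 comparisons each, and Ptprc (CD45) in none. The log2 of the summed pan-leukocyte signal was 9.33 to 9.91 at IONC 48 h, 9.0 to 10.3 at IONC 3 d and 9.08 to 9.22 at IONT 7 d, against 8.11 to 8.38 in naive replicates 1 to 3. Lyz2 was the 1 called gene of 13 monocyte and macrophage markers (7.69%), at IONT 48 h (3.08, adjusted p = 0.00963). The summed signal of that list was 10.4 to 11.9 at IONC 48 h, 9.94 to 12.0 at IONC 3 d and 10.5 to 11.2 at IONT 48 h, against 8.34 to 9.16 in naive replicates 1 to 3. At IONT 15 d it was 9.21 to 9.36, against 8.34 to 8.47 in naive replicates 4 and 5. At each of these times the sums lay above those of the naive arrays. Of 7 dendritic cell and 12 T and NK cell markers 0 were called by limma, and of 6 B cell markers 1 (16.7%), Blnk, was called once. The log2 of the summed dendritic cell signal was 5.52 to 6.23 at IONC 48 h, against 5.16 to 5.20 in naive replicates 1 to 3, with the defining markers Flt3 and Itgax at no more than 3.41 and 2.36 on any array. That of the T and NK cell markers was 6.23 to 6.30 at IONC 48 h and 6.27 to 6.47 at IONT 7 d, against 6.12 to 6.21, and was highest, 7.92, on IONC 12 h replicate 2. On that array Cd3e, of the T cell receptor complex, read 6.15 and Cd2 read 6.54, against at most 5.01 and 2.91 on the other 34. Cd3e averaged 4.25 over all arrays. Cd3d and Cd3g, of the same complex, did not exceed 2.53 and 3.03 on any array, and Ms4a1 and Cd79b of B cells 2.06 and 2.41. Of 10 measured Muller glia and astrocyte markers 3 (30%, beside 3.69%) were called higher at least once. Among them were Gfap in 8 of the 11 comparisons and Crym in 7. Glul and Rlbp1 on that list were called lower at least once, beside 4.45% of all probe sets. Of 10 endothelial and mural markers 1 (10%), Flt1, was called higher once. The part of these cells in the class II values was not tested.

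**Figure D4:**
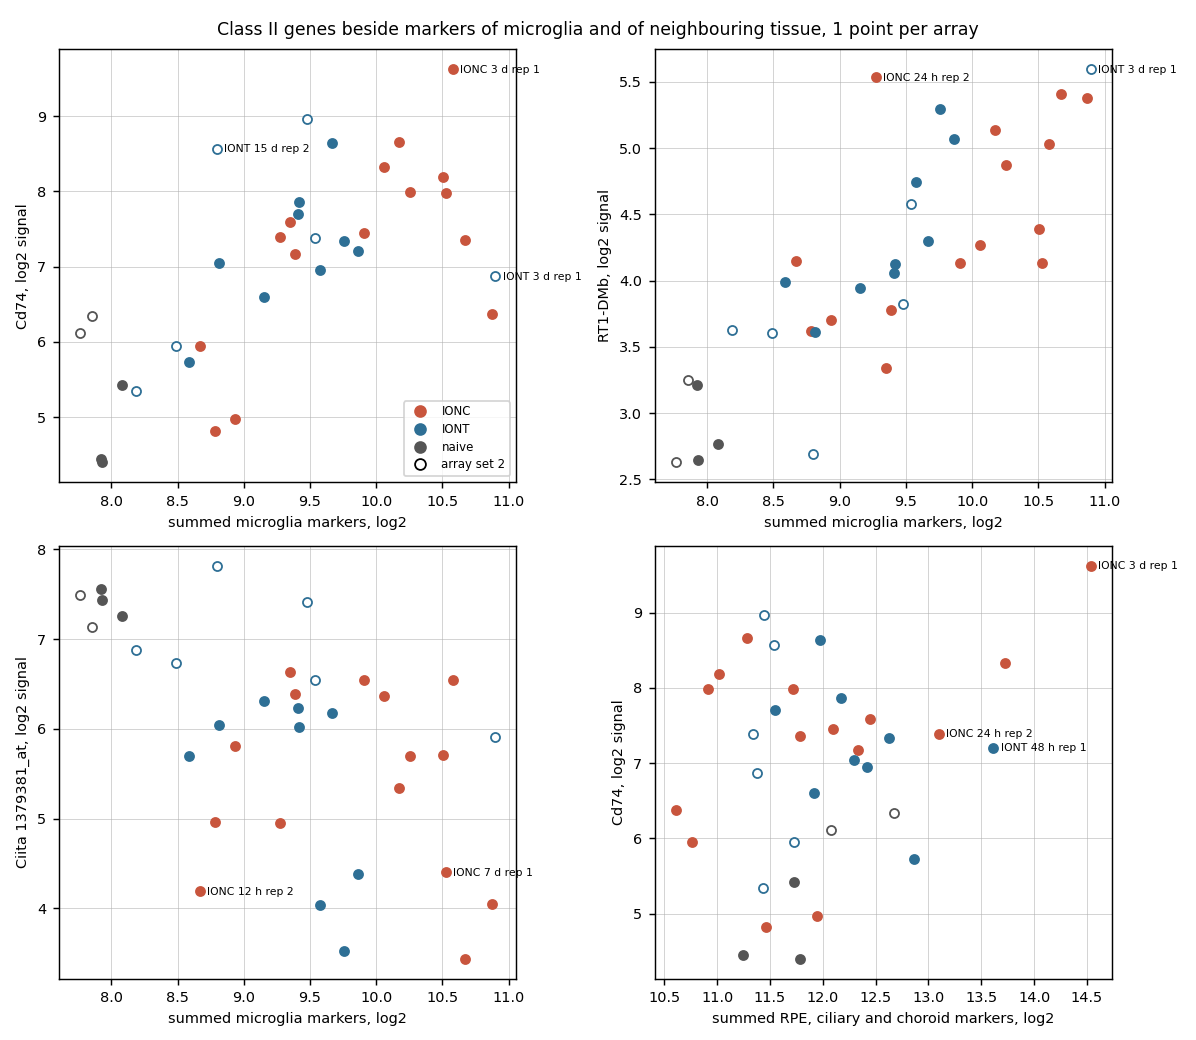
Log2 intensity (GCRMA, y axes) of Cd74, RT1-DMb and Ciita against the log2 summed signal of 14 microglia markers, and of Cd74 against that of 15 markers of retinal pigment epithelium (RPE), ciliary body and choroid (x axes), 1 point for each of the 35 arrays and open points for array set 2. Microglia markers lie at 8.18 or more on every injured array and at 7.76 to 8.08 on the naive arrays, and IONC 3 d replicate 1 is highest for Cd74 and for the RPE, ciliary and choroid markers.

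Markers of tissue around the neural retina varied between arrays of 1 group. The log2 of the summed signal of 15 markers of retinal pigment epithelium, ciliary body and choroid was 14.54, 13.72 and 12.33 on IONC 3 d replicates 1 to 3, against 11.25 to 11.78 in naive replicates 1 to 3. Cd74, RT1-Da, RT1-Db1 and RT1-Ba were ordered the same way over these 3 arrays. RT1-Bb was not, and had its highest value of the 3, 3.62, on replicate 3. At IONC 24 h replicate 2 had 13.10, against 11.95 and 11.47 on replicates 1 and 3, and it was also the highest of the 3 for Cd74, RT1-Da, RT1-Db1 and RT1-Ba. At IONC 48 h, where the Cd74 call held with each array left out, the summed signal of these markers was 10.91 to 11.28. At IONT 48 h it was 12.4 to 13.6, and Cd74 read 6.95 to 7.34 there and was not called. The sums were 11.9 to 12.9 at IONT 12 h and 11.5 to 12.2 at IONT 7 d. After IONC they were 10.6 to 11.8 at 12 h and 11.7 to 12.4 at 7 d. The part of this tissue in the class II values was not tested.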

How the data were processed

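Total RNA of rat retinas was hybridised to 35 Affymetrix RAE230.2 arrays, each a pool of 4 retinas. The deposited log2 values had been made by the authors with GCRMA; no source used here gives its version or says whether all arrays were normalised together. Probe sets were named through the platform annotation (20826 with 1 symbol, 436 with several, 9780 with none), and 57 control probe sets were left out. All arrays entered 1 limma fit (R 4.3.3, limma 3.58.1) of 13 group means, with naive arrays split by array set (β-actin 3′ minus 5′ limit 2.4), and 19 contrasts. A call needed an adjusted p (Benjamini-Hochberg) below 0.01, B above 0 and 1.2-fold. The number of arrays limits the precision. Named are all 8 members in each comparison, up to 4 called genes of each other list with the largest mean change, defining markers, and the 5 genes most correlated with Cd74. Irf1, Icam1, Ctss and genes given only for their highest level were named after their values were seen. Members and lists were chosen with earlier results of these data known. The script was tested on simulated data. Alternatives changed the naive arrays, array set, thresholds, filter, moderation, array weights, replicate block (statmod 1.5.0), normalisation, probe set, and arrays left out.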

Additional observations from a re-analysis of the deposited data

Results flagged for a closer look

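The fall of the main Ciita probe set, 1379381_at, from naive values differed between the lesions at 12 h. The change from naive replicates 1 to 3 was -3.53 after IONC and -1.41 after IONT, and the difference between the lesions, tested directly in the limma fit, was -2.12 ± 0.38 on the log2 scale (adjusted p = 0.00201). All 3 IONC arrays read lower (3.44, 4.19 and 4.05) than all 3 IONT arrays (5.69, 6.04 and 6.31), as for 8.62% of all probe sets. At 48 h the difference had the other sign, 1.60 (adjusted p = 0.071), and was not called. Rod markers were called lower in 9 of 12 at IONC 12 h and in 4 of 12 at IONT 12 h, beside 3.29% and 0.49% of all probe sets. The part of the rod markers in the difference was not tested. In the 5 naive arrays no member had a single array far from the others by Dixon's test (0 of 8). That test looks at 1 extreme array and cannot show a split between the array sets. For Cd74 the naive arrays read 4.40 to 5.42 in array set 1 and 6.12 to 6.34 in array set 2.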

How the results depend on the processing

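The 8 genes were refitted under 52 alternatives, 35 of which left out 1 array each. Of their values 7635 stayed called or not called as before, 70 of them with a change of sign in a value never called, 107 lost and 146 gained a call, and 0 called values changed sign. The numbers of members called that moved by over 1.5 times, or to or from 0, were as follows, by comparison with naive unless a pair is named. With array weights they were 2 (IONT 12 h), 4 (IONT 48 h), 5 (IONT 7 d), 7 (IONC 12 h), 2 (IONC 24 h), 6 (IONC 48 h), 5 (IONC 3 d), 5 (IONC 7 d), 2 (IONC against IONT at 12 h), 1 (IONT 15 d against 24 h) and 3 (IONC 7 d against 12 h). At an adjusted p below 0.05 without B they were 4 (IONT 48 h), 1 (IONT 3 d), 3 (IONT 7 d), 3 (IONT 15 d), 6 (IONC 48 h), 4 (IONC 3 d) and 2 (IONC 7 d). With all 5 naive arrays as 1 group they were 1 (IONT 3 d), 2 (IONT 7 d), 3 (IONT 15 d), 5 (IONC 48 h), 4 (IONC 3 d), 0 (IONC 7 d), 1 (IONC against IONT at 3 d) and 1 (IONT 15 d against 24 h). With all 5 only for the groups of array set 1 they were 2 (IONT 7 d), 5 (IONC 48 h), 4 (IONC 3 d) and 2 (IONC 7 d). With the filter on low values they were 2 (IONT 7 d) and 5 (IONC 48 h), with cyclic loess 2 (IONT 7 d) and 0 (IONC 7 d against 12 h), and with the mean of the probe sets of a gene 1 (IONT 12 h), 2 (IONT 7 d), 2 (IONC 7 d) and 1 (IONT 15 d against 24 h). With each array set fitted alone they were 0 for IONC 7 d, IONT 15 d against 24 h and IONC 7 d against 12 h, and the 24 h and 3 d comparisons between lesions could not be made. Ciita at IONC 48 h and RT1-DMa at IONC 12 h lost their calls there too. Centring on medians gave 1 for IONT 15 d against 24 h, and RT1-Bb at IONC 48 h and RT1-DMa at IONC 12 h lost their calls. Settings chosen after seeing the data left out IONC 12 h replicate 2 and IONC 3 d replicate 1 (IONT 48 h 4, IONT 3 d 1, IONT 7 d 2, IONT 15 d 1, IONC 24 h 2, IONC 48 h 6, IONC 7 d 2, IONC 7 d against 12 h 0) or used all 5 naive arrays without IONC 12 h replicate 2 (IONT 3 d 1, IONT 7 d 2, IONT 15 d 4, IONC 24 h 2, IONC 48 h 5, IONC 3 d 4, IONC 7 d 3, IONC against IONT at 3 d 1, IONC 7 d against 12 h 0). The cause of these shifts was not tested.

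With each array left out in turn the counts ranged from 0 to 1 (IONT 12 h), 0 to 0 (IONT 24 h), 1 to 4 (IONT 48 h), 0 to 1 (IONT 3 d), 0 to 2 (IONT 7 d), 0 to 2 (IONT 15 d), 1 to 3 (IONC 12 h), 0 to 1 (IONC 24 h), 1 to 5 (IONC 48 h), 0 to 4 (IONC 3 d) and 0 to 2 (IONC 7 d), and between lesions 0 to 1 (12 h), 0 to 0 (24 h), 0 to 1 (48 h), 0 to 1 (3 d) and 0 to 0 (7 d). They were 0 to 3 for IONT 15 d against 24 h, 0 to 0 for IONT 7 d against 12 h and 0 to 1 for IONC 7 d against 12 h. The lone array left in a group of 2 was assumed to vary like the other groups.

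The replicate numbers only name arrays: residuals of same-numbered arrays had a median correlation of 0.024 (168 pairs) and those of other pairs -0.0088. With the replicate block, RT1-Bb at IONC 48 h was 3.01 with an adjusted p of 0.0112 and lost its call, so that 2 members were called there, and no other member call changed. Limits are the 2 or 3 arrays per injured group, the array sets that separate the IONT times, and values near the low end of the scale.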
